A study of Rattus norvegicus with 4 samples.

Results

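The ADAMTS proteases described here are Adamts1, Adamts2, Adamts4, Adamts5, Adamts9, Adamts12 and Adamts15. They were taken by gene symbol from a table of raw read counts, which lists 24005 genes, and all 7 were found and passed the filter on low counts that left 15282 genes for testing. Messenger RNA was sequenced from cartilage. The animals were male rats of the outbred Sprague Dawley strain, 8 to 12 weeks old and weighing 140 to 230 g. Of the 4 libraries, 2 were labelled osteoarthritis and 2 healthy control. By the title and the design text, the osteoarthritis was produced with monosodium iodoacetate, which blocks glycolysis and harms chondrocytes when it is injected into a joint. Both osteoarthritis libraries also carry the treatment label XGS (Xiaogu San, a herbal preparation), and none is labelled as untreated osteoarthritis, so disease and preparation cannot be told apart. The labels call every library rat, whereas the design text speaks of normal mice, and they do not say whether each library is a different animal. The spread behind the p-values is that between these libraries, and it may be technical.

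ADAMTS proteins are secreted zinc metalloproteases that carry thrombospondin repeats, which help to hold them in the extracellular matrix. ADAMTS4 and ADAMTS5 are known as the aggrecanases of cartilage: they cut the core protein of aggrecan, the proteoglycan that gives cartilage its resistance to compression, and mice without active ADAMTS5 lose less cartilage in models of osteoarthritis. ADAMTS1, ADAMTS9 and ADAMTS15 cut versican and, in test systems, aggrecan. ADAMTS2 removes the amino-terminal propeptide from fibrillar procollagens, and ADAMTS12 cuts cartilage oligomeric matrix protein (COMP).

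Promoter sequences of 5 of the 7 genes were found in a RefSeq table of the rat build GRCr8, which gives 250 bases before and 50 bases after each gene's start. Those of Adamts1 and Adamts12 are shown because these had the largest fold changes of the 5, and that of Adamts4 as the promoter of an aggrecanase. They are printed 5′ to 3′ on the gene's own strand, and capitals mark matches to the motifs named below them.
Adamts1, GRCr8 chr11:38427335-38427634, minus strand: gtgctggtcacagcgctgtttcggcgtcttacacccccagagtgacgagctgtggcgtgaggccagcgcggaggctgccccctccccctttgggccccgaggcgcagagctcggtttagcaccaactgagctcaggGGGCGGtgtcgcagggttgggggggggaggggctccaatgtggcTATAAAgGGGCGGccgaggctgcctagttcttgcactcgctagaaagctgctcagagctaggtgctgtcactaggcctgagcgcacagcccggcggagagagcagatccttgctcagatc
Adamts4, GRCr8 chr13:86202761-86203060, plus strand: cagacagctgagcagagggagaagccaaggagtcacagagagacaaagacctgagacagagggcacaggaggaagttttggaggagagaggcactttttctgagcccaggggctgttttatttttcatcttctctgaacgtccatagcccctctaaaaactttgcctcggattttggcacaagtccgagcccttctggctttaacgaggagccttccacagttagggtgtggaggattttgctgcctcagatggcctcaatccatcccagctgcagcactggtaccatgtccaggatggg
Adamts12, GRCr8 chr2:61759737-61760036, plus strand: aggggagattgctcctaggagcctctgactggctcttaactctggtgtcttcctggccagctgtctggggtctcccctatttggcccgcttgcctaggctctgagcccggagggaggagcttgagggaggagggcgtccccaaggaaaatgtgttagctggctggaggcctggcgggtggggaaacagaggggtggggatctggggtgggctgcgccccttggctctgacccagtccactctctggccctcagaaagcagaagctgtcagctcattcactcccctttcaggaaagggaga
Searched on both strands were the TATA element (TATAAA), the AP-1 motif (TGANTCA), the RUNX motif (TGTGGT) and the GC box (GGGCGG). No overlap between matches was found in these 3 windows. The Adamts1 window held 1 TATA element and 2 GC boxes, and those of Adamts4 and Adamts12 held none of the 4 motifs. Of the other windows, that of Adamts2 held 5 GC boxes and that of Adamts9 held 1. Among all 33469 promoters of this length, 14.2% held the TATA element, 7.3% the AP-1 motif, 17.3% the RUNX motif and 33.1% the GC box. The GC content was 65.0% for Adamts1, 52.3% for Adamts4, 61.3% for Adamts12, 76.7% for Adamts2 and 72.3% for Adamts9, beside a median of 51.7% over all promoters. A motif match describes these letters and not the binding of a factor.

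Depth was 24492412 to 28270779 counts per library. The 7 genes had between 157 and 10122 counts each. The lowest, Adamts5 in control replicate 1, has a 95% exact Poisson interval of 133 to 184 counts, which covers counting error only. Markers of other tissues differed strongly between the libraries. In summed CPM (counts relative to the library total, scaled by TMM), 9 erythroid genes had 1829 and 6521 CPM in the osteoarthritis libraries, against 121628 and 137564 CPM in the controls. The 17 chondrocyte markers in the table summed to 4394 and 10642 CPM in osteoarthritis and to 25819 and 37830 CPM in control. None was at 0 in any library. Of these 17, 12 lay below both controls in both osteoarthritis libraries, as did 26.5% of all genes tested. Col2a1 alone held 3431 and 385.2 CPM of the sums in osteoarthritis and 13919 and 26813 CPM in control. Acan, Col11a1, Sox9 and Comp lay below both controls in osteoarthritis replicate 1 and above both in replicate 2. The adipocyte list summed to 9452 and 130 CPM in osteoarthritis and to 1703 and 685 CPM in control. The tendon and ligament list summed to 687 and 7634 CPM in osteoarthritis and to 4293 and 3084 CPM in control, so the osteoarthritis libraries stood apart from each other in both lists. Fmod, Thbs4 and Cilp formed most of the tendon and ligament sums. Tnmd, of the same list, had 23.6 and 380.6 CPM in osteoarthritis and 10.8 and 7.40 CPM in control. Scx had 2.31 and 47.1 CPM in osteoarthritis and 8.73 and 5.18 CPM in control. The bulk RNA cannot tell fewer cells of a type from less RNA per cell.

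The comparison asked how transcripts differed between osteoarthritis and healthy cartilage. All 7 ADAMTS genes had a positive log2 fold change (osteoarthritis over control, as in every fold change below), as did 55.1% of all genes tested. For 6 of the 7, both osteoarthritis libraries had a higher CPM than both controls, whereas this held for 30.0% of all genes tested. The exception was Adamts2. No member lay below both controls (26.5% of all genes did). The median log2 fold change of the 7 was 1.60, and that of all genes tested was 0.15. None passed edgeR's quasi-likelihood test at an adjusted p under 0.05, which called 0 of all genes (background 0%). Without adjustment, 5 of the 7 were higher at p under 0.05 by this test (background 12.2%) and 0 lower (background 11.2%). DESeq2 called the same number higher, Adamts1, Adamts4, Adamts9, Adamts12 and Adamts15 (background 7.24%), and 0 lower (background 8.26%), edgeR's likelihood ratio test called 3 higher, Adamts1, Adamts12 and Adamts15 (background 6.31%), and limma-voom called 0 (background 0%). Below, adjusted p is that of the quasi-likelihood test with Benjamini-Hochberg adjustment over all genes unless DESeq2 is named.

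**Figure D1:**
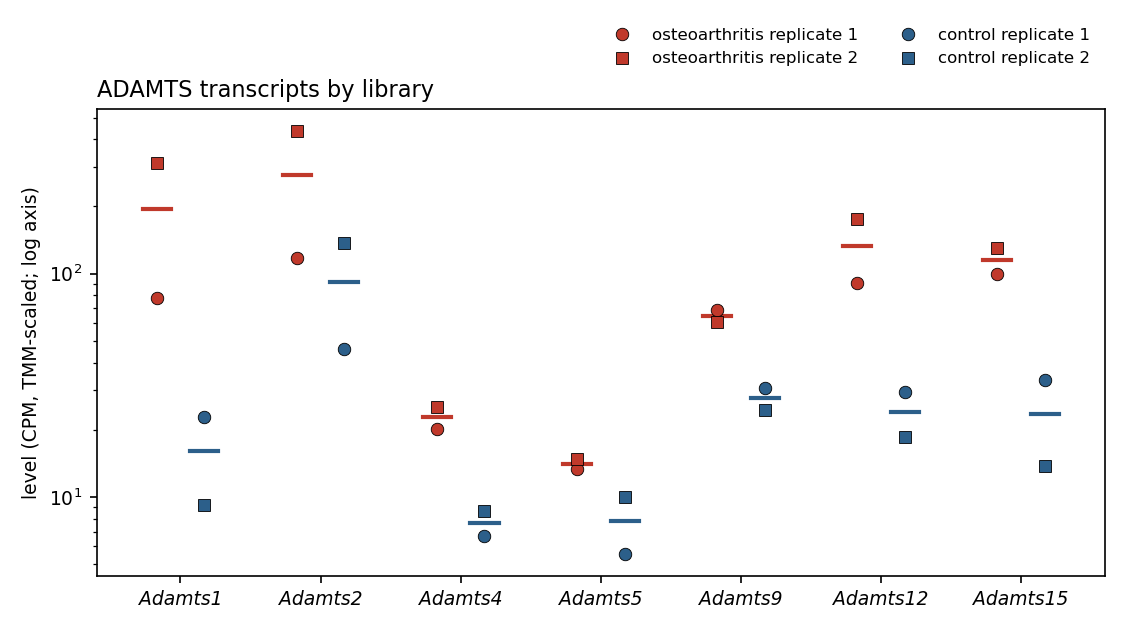
Level of each ADAMTS transcript in CPM (log axis) in the osteoarthritis libraries (red) and the controls (blue), circles for replicate 1, squares for replicate 2 and lines for the group mean. For 6 genes both red points lie above both blue points, and for Adamts2 control replicate 2 (137 CPM) lies above osteoarthritis replicate 1 (118 CPM).

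Of the aggrecanases, Adamts4 had 20.2 and 25.3 CPM in the osteoarthritis libraries, against 6.69 and 8.67 CPM in the controls. The groups did not overlap, and the libraries within each group lay close together. The log2 fold change was 1.57 ± 0.43 (SE, n = 2 each), or 2.96-fold, with an adjusted p of 0.136 (0.0294 by DESeq2). Leaving out any library kept it between 1.34 and 1.78 and gave no call.

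Adamts5 had 13.4 and 14.7 CPM in osteoarthritis and 5.53 and 10.0 CPM in control. Both osteoarthritis libraries stood higher, the nearer by 1.33 times over control replicate 2. Its log2 fold change of 0.85 ± 0.53 was the smallest of the 7 (adjusted p = 0.389, and 0.431 by DESeq2). It was 0.43 without control replicate 1 and 1.36 without control replicate 2. Per length, Adamts4 stood at 1.26 and 1.43 times the FPKM of Adamts5 in osteoarthritis and at 1.01 and 0.722 times in control, where FPKM scales counts by gene length and library total.

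The 3 remaining proteoglycan-cutting members lay higher in osteoarthritis as well, and Adamts1 had the largest fold change of the 7. Adamts1, a versican-cutting enzyme also needed in ovulation, had 78.1 and 311.5 CPM in osteoarthritis, against 22.8 and 9.24 CPM in control. Osteoarthritis replicate 2 stood 3.99 times above replicate 1, and the lowest osteoarthritis library still stood 3.42 times above the highest control. The log2 fold change was 3.60 ± 0.85, or 12.1-fold (adjusted p = 0.114, and 9.29e-05 by DESeq2), which is at the 97.2nd percentile of all genes tested. Without osteoarthritis replicate 2 it was 2.30 (adjusted p = 0.00203), and without osteoarthritis replicate 1 it was 4.27 (adjusted p = 0.000194). Without control replicate 1 it was 4.33 (adjusted p = 0.282) and without control replicate 2 it was 3.11 (adjusted p = 0.358), with no call. Such fits take the spread from the group that still has both libraries.

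Adamts15 had 99.1 and 129.9 CPM in osteoarthritis and 33.3 and 13.8 CPM in control. The osteoarthritis libraries were near each other, while control replicate 1 stood 2.41 times above control replicate 2. Its log2 fold change was 2.28 ± 0.52, or 4.86-fold (adjusted p = 0.109, and 0.00116 by DESeq2). The quasi-likelihood test called it without osteoarthritis replicate 1 (2.45, adjusted p = 0.00367) and without osteoarthritis replicate 2 (2.09, adjusted p = 0.0034). It was not called without control replicate 1 (2.99, adjusted p = 0.263) or without control replicate 2 (1.80, adjusted p = 0.345).

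Adamts9, which cuts versican and aggrecan and is related to Adamts20, had 68.5 and 60.5 CPM in osteoarthritis and 30.9 and 24.6 CPM in control. Its groups were apart. In TMM-scaled CPM it alone of the 7 was lower in osteoarthritis replicate 2 than in replicate 1. In FPKM, Adamts4, Adamts5 and Adamts15 were lower in replicate 2 as well. Adamts9 also had the lowest dispersion of the 7 in the fit, 0.102, beside 0.346 for Adamts2, the highest. The log2 fold change was 1.22 ± 0.32, or 2.32-fold (adjusted p = 0.128, and 0.0289 by DESeq2). It was called when osteoarthritis replicate 2 was left out (1.31, adjusted p = 0.0395), but not without osteoarthritis replicate 1 (1.09, adjusted p = 0.102), control replicate 1 (1.33, adjusted p = 0.348) or control replicate 2 (1.07, adjusted p = 0.391).

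Adamts12, the COMP-cutting member, had 90.6 and 175.5 CPM in osteoarthritis and 29.6 and 18.6 CPM in control. All 4 ratios of an osteoarthritis to a control library lay between 3.06 and 9.41. The log2 fold change was 2.46 ± 0.48, or 5.51-fold, and its adjusted p of 0.0923 was the smallest of the 7 (0.000128 by DESeq2). It was called without osteoarthritis replicate 1 (2.84, adjusted p = 0.000656) and without osteoarthritis replicate 2 (1.92, adjusted p = 0.00304), but not without control replicate 1 (2.77, adjusted p = 0.28) or control replicate 2 (2.18, adjusted p = 0.345). Adamts7, the close relative of Adamts12 that also cuts COMP, had 23.9 and 77.7 CPM in osteoarthritis and 8.80 and 20.7 CPM in control (1.78 ± 0.72, adjusted p = 0.219), again with both osteoarthritis libraries above both controls.

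Adamts2, the procollagen-processing member, had 118.1 and 437.4 CPM in osteoarthritis and 45.9 and 137.0 CPM in control. Here the groups overlapped, since osteoarthritis replicate 1 lay below control replicate 2. With library size alone as the scale they did not overlap. The log2 fold change was 1.60 ± 0.82 (adjusted p = 0.307, and 0.176 by DESeq2). It moved more with the libraries than that of the other members: it was 0.38 without osteoarthritis replicate 2, 0.95 without control replicate 1, 2.61 without control replicate 2, and 2.20 without osteoarthritis replicate 1, where it was called (adjusted p = 0.0151).

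**Figure D2:**
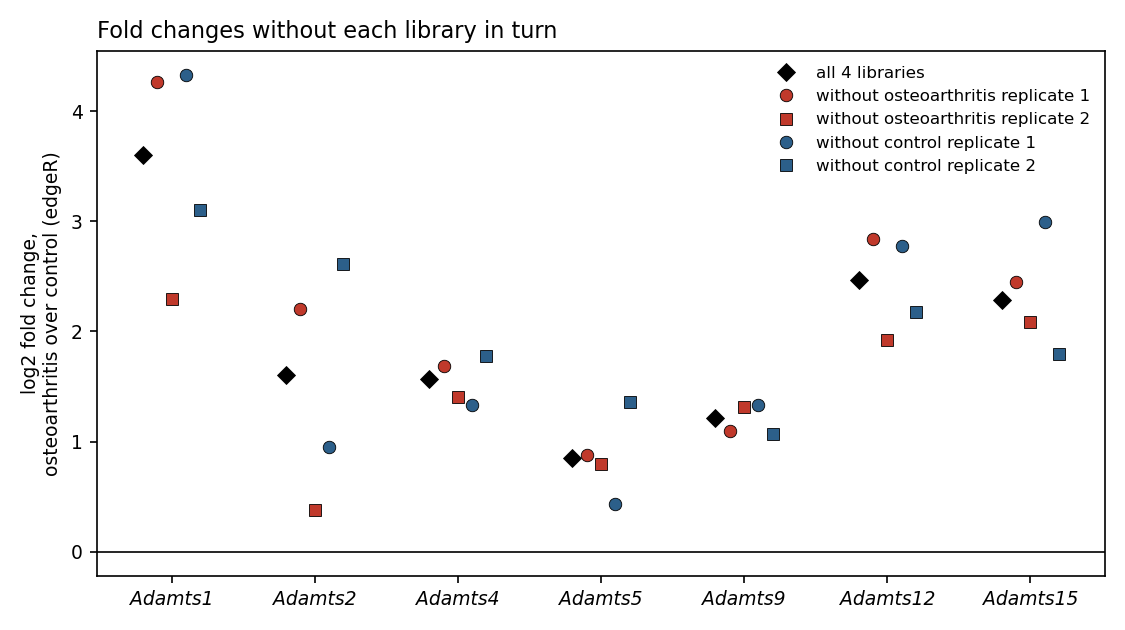
Log2 fold change (osteoarthritis over control, edgeR) of each gene with all 4 libraries (black) and without each osteoarthritis library (red) or each control (blue). Every value is above 0. Adamts2 spans 0.38 to 2.61 and Adamts9 spans 1.07 to 1.33.

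Type I collagen, a substrate of ADAMTS2, followed the same order of libraries in TMM-scaled CPM. Col1a1 had 20226 and 102855 CPM in osteoarthritis and 7108 and 33210 CPM in control (1.61 ± 1.29, adjusted p = 0.507). For both genes CPM was highest in osteoarthritis replicate 2, then control replicate 2, osteoarthritis replicate 1 and control replicate 1. The order was not shared in FPKM. Adamts2 had 27.5 FPKM in osteoarthritis replicate 1 and 24.4 FPKM in control replicate 2, against 4179 and 5257 FPKM for Col1a1. In FPKM, Col1a1 stood at 152 and 209 times Adamts2 in osteoarthritis and at 138 and 215 times in control. This ratio was formed after the values were seen and is a description of 4 libraries. Col3a1, of type III collagen, had 12400 and 35701 CPM in osteoarthritis and 3886 and 7457 CPM in control, with the groups apart (2.08 ± 0.91, adjusted p = 0.247).

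The other procollagen-processing ADAMTS genes had log2 fold changes of unlike sign, and the difference between them was not tested. Adamts14 had 27.5 and 60.1 CPM in osteoarthritis and 10.3 and 13.0 CPM in control, a log2 fold change of 1.91 ± 0.49 (adjusted p = 0.125, and 0.0151 by DESeq2). Adamts3 had 1.22 and 8.64 CPM in osteoarthritis and 1.80 and 13.3 CPM in control (-0.61 ± 1.30, adjusted p = 0.828), with replicate 2 the higher library in each group.

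**Figure D3:**
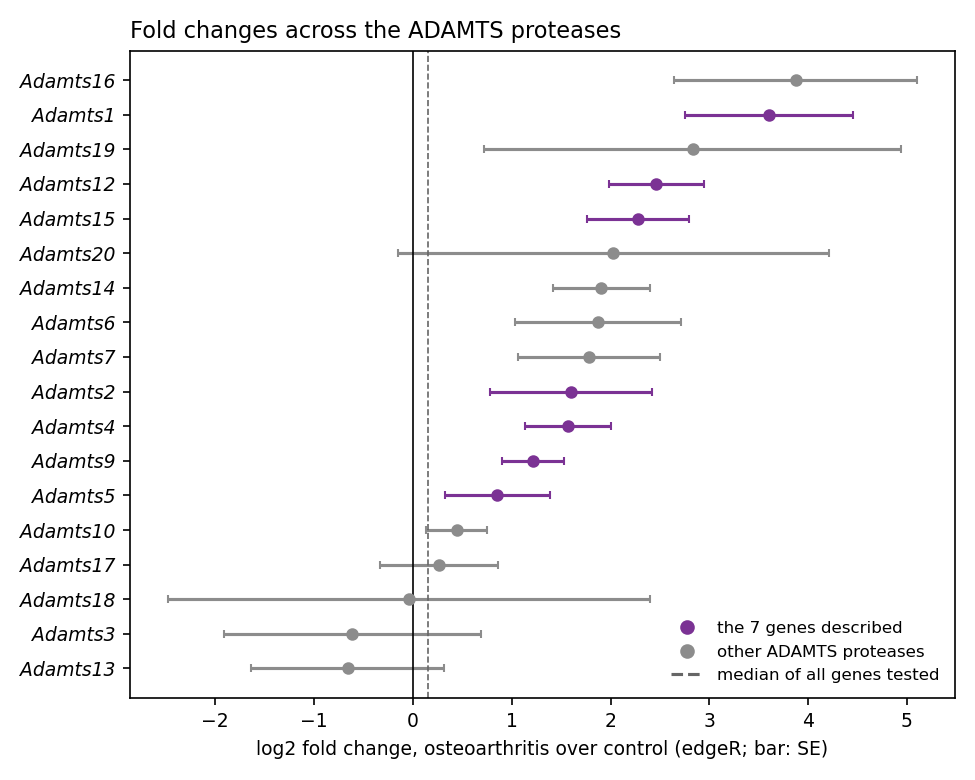
Log2 fold change (osteoarthritis over control) with its SE for the 7 genes described (purple) and 11 other ADAMTS proteases (grey), with the median of all genes tested (0.15) as a dashed line. Adamts1 lies at 3.60 and Adamts5 at 0.85, and Adamts8, at 0 counts in both controls, is not drawn.

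Of the 12 other ADAMTS proteases, all tested, 9 had a positive and 3 a negative log2 fold change (55.1% of all genes were positive). Of these 12, 6 lay above both controls (background 30.0%) and 0 below both (background 26.5%). The quasi-likelihood test of edgeR called 0, with 3 higher at an unadjusted p under 0.05 (background 12.2%). DESeq2 called 3 higher (background 7.24%). Their median was 1.83, also with Adamts8 set at its lower bound. So higher levels were also found among other ADAMTS proteases, though not in all 12. Adamts8, which inhibits vessel growth and lies next to Adamts15 in the order of protein-coding genes in GRCr8, had 26 and 227 counts in osteoarthritis and 0 in both controls. Against a floor of 3 counts in a control library, its level was at least 7.66-fold higher in osteoarthritis replicate 1 and at least 85.2-fold higher in osteoarthritis replicate 2 (adjusted p = 0.131 between the groups). Adamts16 had 3.05 and 31.4 CPM in osteoarthritis and 0.845 and 1.496 CPM in control (3.88 ± 1.23, adjusted p = 0.16). Adamts1 and Adamts5 are neighbours in the same way, and their log2 fold changes were 3.60 and 0.85. The difference between them was not tested.

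The order of the 7 within a library needs levels per length. Control replicate 1 differed from osteoarthritis replicate 1 only in that Adamts1 and Adamts15 changed places. The order in control replicate 2 departed more from the others. In osteoarthritis the mean FPKM was 51.4 ± 33.8 for Adamts2, 42.5 ± 29.7 for Adamts1, 19.4 ± 0.427 for Adamts15, 15.5 ± 3.89 for Adamts12, 7.02 ± 0.379 for Adamts4, 6.80 ± 2.02 for Adamts9 and 5.25 ± 0.754 for Adamts5 (SD, n = 2). In control it was 16.7 ± 10.9 for Adamts2, 3.82 ± 2.43 for Adamts15, 3.61 ± 2.34 for Adamts1, 2.75 ± 1.05 for Adamts12, 2.69 ± 0.598 for Adamts9, 2.66 ± 0.929 for Adamts5 and 2.21 ± 0.264 for Adamts4. Adamts2 came first in all 4 libraries. In the osteoarthritis order Adamts12 and Adamts4 differed by more than their SDs, Adamts15 and Adamts12 by about the SD of Adamts12, and the other neighbours by less than the larger of their SDs. The control genes after Adamts2 did not differ from their neighbours beyond that spread. Adamts1 had rank 2 in both osteoarthritis libraries, rank 3 in control replicate 1 and last in control replicate 2. It made up 20.9% and 32.9% of the summed FPKM of the 7 in osteoarthritis and 17.3% and 5.07% in control. Adamts5 made up 5.63% and 2.44% in osteoarthritis and 6.60% and 8.63% in control, so its share was lower in both osteoarthritis libraries although its own level was higher.

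**Figure D4:**
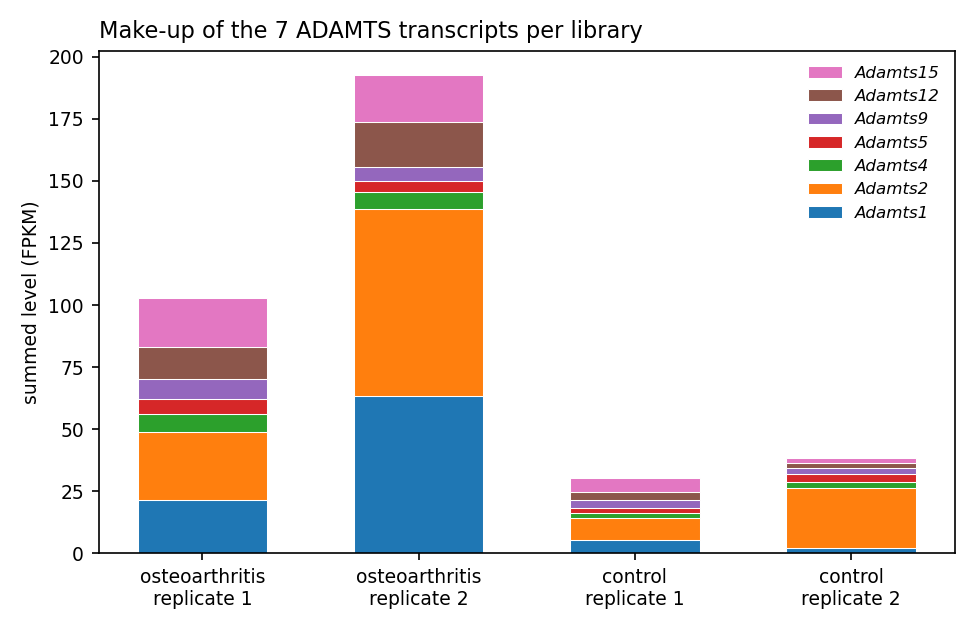
Summed FPKM of the 7 ADAMTS transcripts in each library, stacked by gene. The total is 102.7 and 192.8 FPKM in the osteoarthritis libraries and 30.4 and 38.4 FPKM in the controls, and Adamts1 and Adamts2 form most of the bar in osteoarthritis replicate 2.

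The profiles over the 4 libraries were compared by the Euclidean distance between log2 CPM values centred on each gene's mean. Among the 7, Adamts12 and Adamts15 were nearest to each other (0.58), then Adamts4 and Adamts9 (0.70) and Adamts4 and Adamts5 (0.75), and Adamts1 and Adamts5 were farthest apart (3.21). Of all tested genes, those nearest to Adamts1 were Megf6 (0.49), Pde4b, a cyclic AMP phosphodiesterase (0.62), and Stc1, the hormone stanniocalcin (0.62). Only 1 gene of the 15282 lay within 0.5 of Adamts1, while 481 lay within 0.5 of Adamts9 and 365 of Adamts5. The profiles were not scaled, so these counts also depend on how large a gene's differences between libraries were. The nearest to Adamts4 were Srpx (0.11), Gabre (0.12) and Taf1 (0.14). Nearest to Adamts5 were Ptbp2 (0.07), Igf1r, the receptor of insulin-like growth factor (0.07), and Snx2 (0.11). For Adamts9 they were Nacc2 (0.04), Ahr, the aryl hydrocarbon receptor (0.07), and Wdr13 (0.08). Arhgef28 (0.14), Plppr2 (0.15) and Fam114a1l1 (0.19) were nearest to Adamts12, and Nrbp2 (0.11), Bdkrb2, a bradykinin receptor (0.15), and Nlgn3 (0.16) to Adamts15. For Adamts2 they were Fbxo10 (0.07), Zmat3 (0.17) and Pcdhgb5 (0.17). With 4 libraries such likeness is a description.

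Substrate genes went both ways. Of 12 tested substrate genes, 7 had a positive and 5 a negative log2 fold change (median 0.45). Above both controls lay 2 (background 30.0%), and 1 lay below both (background 26.5%). Acan, the aggrecan core protein, had 70.9 and 2703 CPM in osteoarthritis and 492.5 and 587.0 CPM in control. Its osteoarthritis libraries lay on either side of the controls. Adamts4 and Adamts5 each had similar levels in these libraries, and a relation between them and Acan was not tested. In FPKM, Acan stood at 2.13 and 73.6 times Adamts5 in osteoarthritis and at 35.8 and 23.5 times in control. Vcan, versican, had 111.6 and 1019 CPM in osteoarthritis and 60.0 and 84.5 CPM in control (2.97 ± 1.05, adjusted p = 0.186, and 0.0112 by DESeq2), with the groups apart. Osteoarthritis replicate 2 was far the highest, as for Adamts1 but also for Acan, Col1a1 and Col3a1. In FPKM, Vcan stood at 0.790 and 1.81 times Adamts1 in osteoarthritis and at 1.45 and 5.05 times in control. Comp had 278.1 and 4468 CPM in osteoarthritis and 4216 and 2506 CPM in control (-0.50 ± 1.22, adjusted p = 0.853). Col2a1, which encodes the chain of type II collagen, had 3431 and 385.2 CPM in osteoarthritis and 13919 and 26813 CPM in control (-3.42 ± 1.25, adjusted p = 0.194), the member of the list below both controls.

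Inhibitors of these enzymes were measured beside them. Timp3, the tissue inhibitor that blocks ADAMTS4 and ADAMTS5, had 781.3 and 897.0 CPM in osteoarthritis and 495.6 and 305.4 CPM in control (1.07 ± 0.46, adjusted p = 0.242). It was the only one of 5 tested inhibitor genes with the groups apart (30.0% of all genes lay above both controls). Of the 5, 3 had a positive and 2 a negative log2 fold change (median 1.07). Per length, Timp3 stood at 4.78 and 2.55 times the summed FPKM of Adamts1, Adamts4, Adamts5, Adamts9 and Adamts15 in osteoarthritis and at 8.86 and 7.44 times in control. The summed FPKM of those proteases was 62.5 and 99.4 in osteoarthritis and 17.9 and 12.0 in control. Of these sums, Adamts1 alone held 21.5 and 63.4 FPKM in osteoarthritis and 5.27 and 1.95 FPKM in control. A ratio of Timp3 to Adamts4 and Adamts5 alone was not formed, and the ratio above only describes these libraries. Timp2 (1.64 ± 0.94), Timp4 (1.69 ± 1.32), Timp1 (-0.12 ± 0.57) and Reck, a membrane-bound inhibitor of metalloproteases (-0.31 ± 0.59), overlapped between the groups.

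ADAMTS enzymes are made as inactive precursors that proprotein convertases cut, and the convertases went in different directions. Pcsk6 (PACE4), which has been described as an activator of aggrecanases in cartilage, had 27.6 and 30.1 CPM in osteoarthritis and 180.0 and 115.3 CPM in control. Both osteoarthritis libraries lay far below both controls, a log2 fold change of -2.36 ± 0.37 (adjusted p = 0.0835, and 2.25e-06 by DESeq2). Furin overlapped between the groups, with 131.6 and 206.0 CPM in osteoarthritis and 178.5 and 172.6 CPM in control (-0.06 ± 0.38, adjusted p = 0.953). Pcsk7 had 56.6 and 62.7 CPM in osteoarthritis and 30.7 and 34.6 CPM in control (0.87 ± 0.30, adjusted p = 0.18). Mmp17, a membrane-anchored protease described as an activator of ADAMTS4 at the cell surface, had 167 and 144 counts in osteoarthritis and 0 and 6 in control (adjusted p = 0.155). Sdc4, a cell surface proteoglycan that binds ADAMTS5, had 44.0 and 242.0 CPM in osteoarthritis and 102.0 and 108.2 CPM in control, and Lrp1, the receptor that takes up ADAMTS4 and ADAMTS5, had 528.0 and 2252 CPM in osteoarthritis and 613.9 and 651.7 CPM in control. For both, the osteoarthritis libraries lay on either side of the controls. Of the 9 genes of activation and anchoring, 7 had a positive and 2 a negative log2 fold change (median 0.87). Above both controls lay 2 (background 30.0%), and 1, Pcsk6, lay below both (background 26.5%).

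Some cytokines that induce aggrecanases in chondrocyte culture are given here, named after their values were seen. Tnf had 0 counts in both osteoarthritis libraries and 0 and 2 in the controls, and Il6 had 7 and 8 counts in osteoarthritis and 58 and 8 in control. Il1a had 1 and 6 counts in osteoarthritis and 6 and 32 in control. Osm, of the same list, had 2.10 and 1.81 CPM in osteoarthritis and 6.12 and 4.45 CPM in control (-1.43 ± 0.82, adjusted p = 0.355). Il1b overlapped, with 6.85 and 2.29 CPM in osteoarthritis and 5.74 and 6.06 CPM in control. Its receptor Il1r1 had 114.4 and 91.3 CPM in osteoarthritis and 32.6 and 36.2 CPM in control, with the groups apart (1.58 ± 0.31, adjusted p = 0.0958, and 0.00207 by DESeq2). Epas1, the hypoxia-inducible factor described as a regulator of matrix-degrading enzymes in cartilage, had 176.6 and 197.7 CPM in osteoarthritis and 82.6 and 43.0 CPM in control (1.57 ± 0.43, adjusted p = 0.135). Il6st, the shared receptor chain of the interleukin-6 family, had 778.3 and 502.1 CPM in osteoarthritis and 347.8 and 195.1 CPM in control (1.24 ± 0.50, adjusted p = 0.222). Of 14 tested signals and regulators, 10 had a positive and 4 a negative log2 fold change (median 0.57). Above both controls lay 7 (background 30.0%), and 1, Osm, lay below both (background 26.5%).

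**Figure D5:**
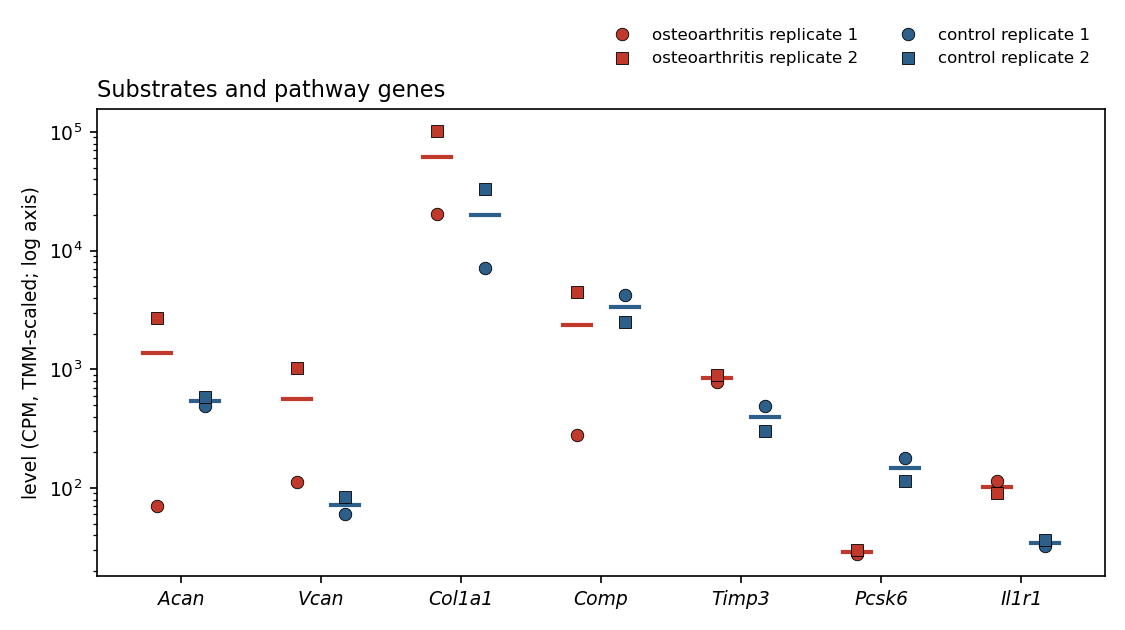
Level in CPM (log axis) of 4 substrates, the inhibitor Timp3, the convertase Pcsk6 and the receptor Il1r1 in the osteoarthritis libraries (red) and the controls (blue), circles for replicate 1, squares for replicate 2 and lines for the group mean. Pcsk6 lies at 27.6 and 30.1 CPM in osteoarthritis, below both controls, while the osteoarthritis libraries of Acan lie on either side of the controls.

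Several ADAMTS genes are also made by vessel walls and connective tissue, so markers of those cells are given beside them. Over all genes tested, 55.1% had a positive log2 fold change, 30.0% lay above both controls and 26.5% below both. All 11 smooth muscle and pericyte markers had a positive log2 fold change and 7 lay above both controls. They summed to 5737 and 3443 CPM in osteoarthritis and to 2731 and 1067 CPM in control, and none was at 0 in any library. Of 12 endothelial markers, 9 had a positive log2 fold change and 4 lay above both controls, the latter a share near that of all genes. These 12 summed to 2300 and 1449 CPM in osteoarthritis and to 1772 and 872.8 CPM in control. Of 8 tested tendon and ligament markers, 5 had a positive and 3 a negative log2 fold change, and 1 lay above both controls and 1 below both; their sum, given above, was highest in osteoarthritis replicate 2 and lowest in osteoarthritis replicate 1. Of 12 synovial lining and fibroblast markers, 2 lay above both controls and 4 below both. The lists of osteoblast (8 of 10), macrophage (7 of 10), neutrophil (7 of 7) and erythroid (9 of 9) genes lay mostly below both controls, and no tested skeletal muscle or adipocyte marker was apart in either direction. The part of these tissues in the ADAMTS levels was not tested.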

How the data were processed

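The authors deposited raw read counts per gene for 4 rat cartilage libraries, and FPKM values for the same genes. The submitters' processing notes name fastp, TopHat and hg38, a human build, although the symbols are those of rat. Counter, annotation and strand setting are not stated in what was used here, and overlapping genes may share reads. All 67506 FPKM values above 0 equalled count over length and column total within 1e-08, so FPKM is no independent measurement.

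The members and lists were chosen with earlier results of these data known. Groups follow the disease label. The test was that of edgeR 4.0.16 under R 4.3.3 (filterByExpr, TMM, quasi-likelihood F test, two-sided, Benjamini-Hochberg over 15282 genes, threshold 0.05). SEs are the fold change over the root of F. DESeq2 1.42.0 and limma 3.58.1 were alternatives. With 2 libraries against 2, an exact permutation test has a smallest p of 0.333 and was not used. Named were the members, 18 genes fixed by name, and the 3 nearest profiles per member (log2 CPM, prior count 2). From each further list other than the cell type lists, the 3 tested genes of lowest unadjusted p were named. Other genes of the cell type lists were named after their values were seen. Scripts were tested on simulated data. Sequences are from RefSeq (GRCr8). Figures used matplotlib 3.10.9.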

Additional observations from a re-analysis of the deposited data

How the results depend on the processing

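The direction of all 7 genes held under each of the 14 alternatives, and no member was called lower. The median log2 fold change of the 7 lay between 1.34 and 2.20 (1.60 as reported), while that of all genes tested lay between -0.08 (without osteoarthritis replicate 1) and 0.42 (all genes with a count), and was 0.15 as reported and 0.27 with library size alone as the scale. Against 0 calls among the 7 as reported, DESeq2 called 5 higher, edgeR's likelihood ratio test 3, and the quasi-likelihood test on all genes with a count 3. Leaving out 1 library gave 0 to 4 calls, namely 4 when either osteoarthritis library was left out and 0 when either control was. Over all genes, DESeq2 called 1107 higher and 1262 lower, the likelihood ratio test 965 and 978, and the test on all genes with a count 677 and 751. Leaving out 1 library gave 0 to 1297 higher and 0 to 1105 lower. Over all genes too, calls appeared when either osteoarthritis library was left out and were absent when either control was. The member calls in these fits thus came together with calls over all genes. How many genes were tested is not given for the fits without 1 library or on all genes with a count. The member calls in those fits therefore cannot be set against a share of all genes. The cause of the differences between settings was not tested. The count of members above both controls was 6 to 7 under other scalings or without 1 library. The counts without 1 library were chosen after seeing the data. Without 1 library, 41.7% to 42.8% of all genes lay above the controls. No paired analysis was possible because the labels give no replicate numbers and the numbers used here only name the libraries. With 2 libraries a group, a p above the threshold does not show that levels were equal.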

Other observations

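The ADAMTS-like proteins share the thrombospondin repeats of the proteases but lack the catalytic domain, and several bind fibrillin microfibrils. Of 7 tested genes of this group, 5 had a positive log2 fold change (55.1% of all genes did). Above both controls lay 3 (background 30.0%), and 0 lay below both (background 26.5%). The quasi-likelihood test of edgeR called 0, with 3 higher at an unadjusted p under 0.05 (background 12.2%). DESeq2 called 3 higher (background 7.24%). The median log2 fold change was 0.77. Adamtsl1 had 26.3 and 32.7 CPM in osteoarthritis and 4.19 and 4.53 CPM in control, and its libraries lay close together within each group (2.76 ± 0.42, edgeR adjusted p = 0.0835). Adamtsl4, which is linked to the suspension of the eye's lens, had 163.7 and 341.3 CPM in osteoarthritis and 75.9 and 66.6 CPM in control (1.83 ± 0.47, edgeR adjusted p = 0.126). Adamtsl3 had 10.9 and 43.7 CPM in osteoarthritis and 4.22 and 5.22 CPM in control (2.53 ± 0.76, edgeR adjusted p = 0.152). Adamtsl2 and Adamtsl5, named after their values were seen, had negative log2 fold changes (-0.84 ± 0.62 and -0.39 ± 0.50), and their groups overlapped.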
